A study of Homo sapiens with 2 samples.

Results

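GSE1 held 131 of the 33353 peaks of H4R3me2a, asymmetric dimethylation of arginine 3 on histone H4, in HCT116 cells. The peaks were taken from the authors' deposited peak table where the summit lay in the body of GSE1 or within 1 kb of one of its annotated transcription start sites (TSSs). Membership was thus defined from the peak calls themselves, and the gene was chosen for its peaks. The count, the density, the ranks and the heights below are therefore descriptions and carry no test. All 131 summits lay inside the gene body, and none entered only through the window around a start site.

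HCT116 is an established human colorectal carcinoma line, here without drug treatment. One library of chromatin immunoprecipitated with an H4R3me2a antibody and 1 input library of unselected chromatin DNA were sequenced, and peaks were called on the first against the second. Neither has a replicate, so no difference below can be set against a spread between samples, and every interval covers counting error only. Library sizes were not used here, and the pileup, the number of fragments stacked at a summit, stands for depth.

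Dimethylation of this arginine in the asymmetric form is deposited mainly by the methyltransferase PRMT1 and is known as a mark of permissive chromatin. GSE1 encodes a coiled-coil protein found in corepressor complexes that carry the demethylase KDM1A (LSD1), the scaffold RCOR1 (CoREST) and the deacetylases HDAC1 and HDAC2. Its annotated span is long because distant upstream starts and very large introns precede the canonical transcript.

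On GRCh38 with GENCODE v44, GSE1 (ENSG00000131149.19) lies on the + strand at chr16:85169525-85676204, a span of 506.68 kb with 16 transcripts that start at 16 different positions. The canonical transcript, GSE1-201, begins only at position 85613322 and covers 62.88 kb in 16 exons. The other 443.8 kb before it belong to the farthest-reaching transcript, GSE1-216, which has 3 exons, and to other upstream starts.

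The reference sequence around the summit is printed for 4 peaks that mark the range of the set: the highest pileup (tied with peak 115 and ahead of it by q), the highest fold over background, the summit nearest the 5′ end, which is also the richest in G and C, and the one poorest in G and C. Each run is 151 bases of the + strand of GRCh38 centred on the summit, with the CpG dinucleotides in capitals.
Highest pileup, peak 2 (chr16:85170887-85171037): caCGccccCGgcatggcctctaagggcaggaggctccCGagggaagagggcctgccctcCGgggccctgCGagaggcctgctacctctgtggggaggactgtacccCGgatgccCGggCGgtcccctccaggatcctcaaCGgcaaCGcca
Highest fold, peak 106 (chr16:85601063-85601213): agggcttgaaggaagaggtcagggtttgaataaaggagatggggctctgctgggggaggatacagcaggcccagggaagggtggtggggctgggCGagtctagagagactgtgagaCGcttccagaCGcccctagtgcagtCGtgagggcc
Nearest the 5′ end and highest GC, peak 1 (chr16:85170082-85170232): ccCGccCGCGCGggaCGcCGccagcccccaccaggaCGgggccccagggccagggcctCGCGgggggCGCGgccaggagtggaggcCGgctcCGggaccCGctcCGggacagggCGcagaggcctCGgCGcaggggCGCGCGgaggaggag
Lowest GC, peak 4 (chr16:85179584-85179734): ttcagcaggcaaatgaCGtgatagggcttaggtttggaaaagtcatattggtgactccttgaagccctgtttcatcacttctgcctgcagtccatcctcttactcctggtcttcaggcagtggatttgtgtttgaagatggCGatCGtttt
The peaks are numbered from the 5′ end of the gene. The CpG count of these windows was 10 in peak 2, 4 in peak 106, 21 in peak 1 and 3 in peak 4, and their GC content was 71.5%, 60.9%, 84.1% and 46.4%. The pileups of the same peaks were 22, 14, 17 and 12 fragments, so the window richest in CpG was not the highest peak.

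The peaks ran through the whole gene with no single dominant site. Their density was 25.8 peaks per 100 kb of the gene with its start windows (507.68 kb, the base of all densities and shares of the span of the whole gene), against 3.05 per 100 kb over chromosome 16 and 1.15 per 100 kb over all chromosomes used. Together they covered 32.73 kb, or 6.45% of the span. In 5 equal sections from the 5′ end the gene held 28, 22, 28, 19 and 34 peaks. The last section, which contains the canonical transcript, was the densest at 33.6 per 100 kb, and the fourth was the sparsest at 18.7. The first peak outside lay 19139 bp upstream of the 5′ end, with a pileup of 15 and a fold of 3.77, and the next 2 upstream lay at 22705 and 25040 bp. Downstream of the 3′ end, the first lay at 11875 bp, inside GINS2, which encodes a subunit of the replicative helicase, with a pileup of 15 and a fold of 4.38. Just inside the 5′ end, the first peak had its summit 632 bp into the gene, with a pileup of 17 and a fold of 3.21.

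**Figure D1:**
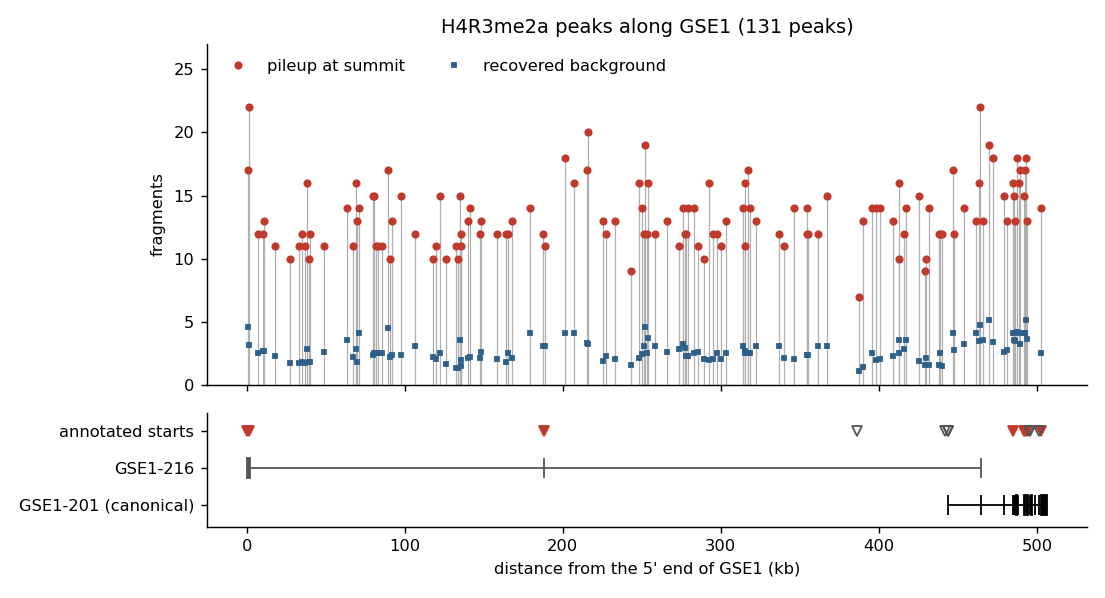
The pileup at the summit (circles) and the recovered background (squares) of each GSE1 peak, in fragments, against the distance from the 5′ end of the gene in kb, above a map of the annotated starts (filled where a summit lies within 1 kb) and of the exons of GSE1-216 and GSE1-201. The 131 peaks spread over the whole length with pileups of 7 to 22, and the widest gap, 20355 bp, begins 367102 bp from the 5′ end.

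By annotation, most of the peaks were intronic and away from any start. Each peak was placed in the first class it met: the promoter of the 5′ end, an internal GSE1 start, an exon, an intron. Introns held 119 peaks, 90.8% of the set (exact 95% interval 84.5 to 95.2%), and make up 94.4% of the span, at 24.8 peaks per 100 kb. Within 1 kb of the internal starts lay 10 peaks, 7.63% of the set (3.72 to 13.6%), over 4.02% of the span, at 48.9 per 100 kb. The promoter of the 5′ end and the remaining exons had 1 peak each. Thus 11 peaks, 8.40% of the set, were within 1 kb of a GSE1 start, whereas 30.3% of all peaks in the list were within 1 kb of a start of a protein-coding gene. By the base at the summit alone, 7 peaks fell in coding exons, 2 in other exons and 122 in introns. None fell in a UTR, for which the exact 95% interval reaches up to 2.78%.

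The same classes were counted for the other genes. In the neighbouring protein-coding genes of the same 5 Mb, 147 of 487 peaks, 30.2% (26.1 to 34.5%), were within 1 kb of a start of their own gene, and 58.9% (54.4 to 63.3%) were intronic. In the neighbours of 50 kb or more, 20.1% (15.6 to 25.1%) were near a start and 71.8% (66.3 to 76.8%) were intronic. These intervals do not overlap that of GSE1 for introns. The sequence differs in the same direction, since windows around starts make up 21.1% of the sequence of all neighbours and 14.7% of that of the long ones, against 4.42% in GSE1. Per length, intronic peaks were denser in GSE1, at 24.8 per 100 kb against 15.7 in all neighbours and 14.2 in the long ones, and so were peaks near starts, at 49.0 against 27.2 and 21.5. Of exonic peaks away from starts, GSE1 had 1 in 5.875 kb, and all neighbours had 26.7 per 100 kb. A single peak is too few to compare these densities. The class order also counts exonic summits within 1 kb of a start with the starts.

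A summit within 1 kb was found at 8 of the 16 annotated starts, and the canonical start was not among them. Such a window is 2.001 kb long, and the median gap between summits in the gene was 2437.5 bp. How often a window away from starts holds a summit was not counted, so neither observation is read as a result about starts. Around the start of GSE1-201 the nearest summits lay 3234 bp downstream, with a pileup of 17 and a fold of 3.53, and 3922 bp upstream. The starts of GSE1-204 and GSE1-202, next to it, were equally without a peak. At the 5′ end, the start of GSE1-216 had the summit of peak 1 at 632 bp downstream, and the start of GSE1-214 had that of peak 2 at 314 bp upstream. Peak 2 (chr16:85170869-85171175) lies in the coding first exon of GSE1-216, and with 22 fragments over a background of 3.18 it had a fold of 5.51 and a −log10 q of 6.58, the strongest call of the gene. The start of GSE1-213, in the large intron region, had 2 summits, 429 bp upstream and 901 bp downstream. The other starts with summits lie within the canonical transcript: GSE1-205 with 2, GSE1-209 with 2, GSE1-207 with 3, GSE1-206 with 2 and GSE1-208 with 1. Those starts are close together, so some of these summits are counted at more than 1 of them. The start of GSE1-215 had no summit in the window, with a summit 1015 bp downstream, in the lowest peak of the gene.

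The 10 peaks at internal starts had a median pileup of 15 (11 to 22), a median background of 3.61 and a median fold of 3.26. The 119 intronic peaks had a median pileup of 13 (7 to 22), a median background of 2.56 and a median fold of 3.90. Peaks at internal starts were thus higher in fragments and lower in fold. Of them, peaks 121, 122 and 127 to 131 lie in the canonical transcript. All peaks of that transcript together had a median pileup of 15.5, a background of 3.61 and a fold of 3.51. Closeness to a start and position in the gene were not separated here. The ranges of pileup and fold at internal starts lay within those of the intronic peaks.

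The gene was also divided at the canonical start. The stretch before it held 109 peaks, at 24.6 per 100 kb, and the canonical transcript held 22, at 35.0 per 100 kb of its own body. Within GSE1-216, intron 1 (185.7 kb) had 46 peaks and intron 2 (276.3 kb) had 67, at 24.8 and 24.3 per 100 kb. The large introns were therefore filled at nearly the same density. Intron 2 of GSE1-216 runs past the canonical start, so its 67 peaks include the 6 in intron 1 of the canonical transcript. In the canonical transcript, intron 1 had 6 peaks, intron 2 had 4, and the exons had 5 summits in 7.385 kb, in exons 4, 5, 6, 9 and 10. Those 5 amount to 67.7 per 100 kb of exon, too few for a comparison with the introns. Among them, peaks 121, 122, 127 and 130 are also counted at internal starts. The last exon, of 3796 bp, had none.

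Heights differed between these stretches. Before the canonical start the median pileup was 12 fragments (interval of the median 12 to 13), the background 2.51 and the fold 3.90, and in the canonical transcript they were 15.5 (13 to 17), 3.61 and 3.51. The GC content of the sequence was 56.3% and 58.6%. The higher pileup of the canonical transcript thus came with a higher background and a lower fold. All 4 peaks whose −log10 q was at least 5 and all 12 peaks of 10 or fewer fragments lay before the canonical start. So did 109 of all 131 peaks, so the 4 and the 12 show no difference between the stretches by themselves. In the canonical transcript the lowest background was 2.56, a level at which the lowest pileup called among other peaks was 10. The 4 peaks of high q are 3.05% of the GSE1 peaks, near the 3.84% of the whole list that pass the same limit.

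Spacing was irregular. The 130 gaps between neighbouring summits had a median of 2437.5 bp (1829 to 3541) and quartiles of 1077.5 and 5707 bp, and they ran from 261 to 20355 bp. The mean gap was 3860 bp with an SD of 3632 bp, a coefficient of variation of 0.941. Gaps under 1 kb numbered 28, or 21.5%, and gaps of 10 kb or more numbered 9, all of them before the canonical start. That stretch held 108 of the 130 gaps and the canonical transcript 21, so the 9 show no difference between them by themselves. The median gap was 2613 bp before the canonical start and 1829 bp within the canonical transcript.

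The smallest gaps separated pairs of distinct short peaks. Peaks 80 and 81 were 261 bp apart by summit, with 11 and 16 fragments. Peaks 88 and 89 were 283 bp apart, with 12 and 14 fragments, and another summit followed 540 bp later. Peaks 129 and 130, at the starts of GSE1-207 and GSE1-206, were 349 bp apart, with 18 and 13 fragments. The largest gap lay in intron 2 of GSE1-216, between peak 92 (chr16:85536554-85536729, 15 fragments) and peak 93 (chr16:85556822-85557041). Peak 93 had 7 fragments over a background of 1.10, the lowest of both in the gene, and a fold of 3.81, close to the median of the set.

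**Figure D2:**
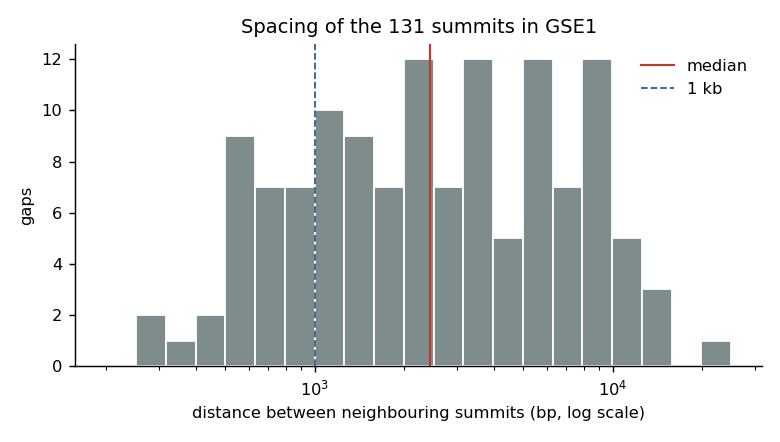
The distribution of the 130 gaps between neighbouring GSE1 summits, in bp on a log scale, with the number of gaps in each bar, a red line at the median and a dashed line at 1 kb. Gaps run from 261 to 20355 bp around the median of 2437.5 bp with no single favoured distance, and 28 lie under 1 kb.

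Counted in 50 full windows of 10 kb, the gene had a median of 2 peaks per window, a maximum of 7 and 3 windows with none. The mean was 2.6 and the variance 2.94. Windows of 5 or more peaks numbered 9 and had a median GC content of 57.8%, against 56.2% in those of 1 to 4 and 55.6% in the empty ones. Over the 50 windows, which share the library and lie next to each other, Pearson's r between peaks and GC was 0.491 and Spearman's rho 0.497.

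Peaks of GSE1 were somewhat wider and higher than the list as a whole, whose median width was 185 bp (184 to 186) and whose median pileup was 10 fragments with an upper quartile of 12. Their median width was 218 bp (193 to 245), the narrowest measured 126 bp and the widest 732 bp, and 6 peaks, 4.58%, reached 500 bp. The pileup had a median of 13 fragments (12 to 14), quartiles of 12 and 15 and a range of 7 to 22. The fold, the pileup over the local background with 1 added to each as the deposited values have it, had a median of 3.82 and a range of 2.75 to 5.73. No GSE1 peak reached a fold of 6, which 1172 peaks of the list, 3.51%, and 16 of the 487 neighbour peaks, 3.29%, did. At such shares a set of 131 peaks would hold only a few, so their absence shows little by itself. In 53 peaks, 40.5%, the fold was at least 4, as it was in 59% of all peaks.

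The 5 highest pileups were in peak 2 and peak 115 with 22 fragments, peak 53 with 20, and peaks 61 and 117 with 19. Their backgrounds ranged widely. Peak 115 (chr16:85633492-85633781), in intron 1 of the canonical transcript, had a background of 4.73 and a fold of 4.01. Peak 53 (chr16:85385482-85385638), in intron 2 of GSE1-216, had 3.26 and 4.93, with a −log10 q of 5.28. Peak 61 (chr16:85421272-85421479), in the same intron, had 4.61 and 3.57, and peak 117 (chr16:85639123-85639388), in intron 2 of the canonical transcript, had 5.12 and 3.27. A high pileup in this gene was therefore often set against a high background. The highest fold, 5.73, belonged to peak 106 (chr16:85600907-85601237), an intronic peak of 14 fragments over a background of 1.62.

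The widest peaks were not the highest. Peak 51 (chr16:85376082-85376813) spanned 732 bp with 16 fragments, peak 44 (chr16:85333212-85333880) 669 bp with 12, and peak 25 (chr16:85259005-85259574) 570 bp with 17. All are intronic to GSE1-216. Across the members, Spearman's rho between width and pileup was 0.169, over 131 peaks of 1 library.

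The background under the peaks was high for this list. It was recovered from each deposited pileup and fold, and it had a median of 2.56 fragments (2.46 to 2.69) in GSE1 and 1.54 over all peaks. It exceeded the median of the list in 126 members, 96.2%, and the pileup did so in 119. Peaks of 10 or fewer fragments made up 9.16% of GSE1 and 59.5% of the list. The lowest pileup called among other peaks was 7 at a background of 1.54, 10 at 2.56 and 12 at 3.61, so the level a peak must pass moves with the background. Among members, rho between pileup and background was 0.601 and between fold and background −0.659. The fold contains the background by construction, and a called pileup must pass a level that moves with it. Both values come from 1 library. Against other peaks of the list whose background was within 0.1 fragments, 69 members had a higher pileup than the median, 22 an equal and 40 a lower one, with a median difference of 1 fragment. Width differed by a median of 10 bp and fold by 0.191 in the same comparison. Whether the background moved the count of GSE1 peaks was not tested.

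**Figure D3:**
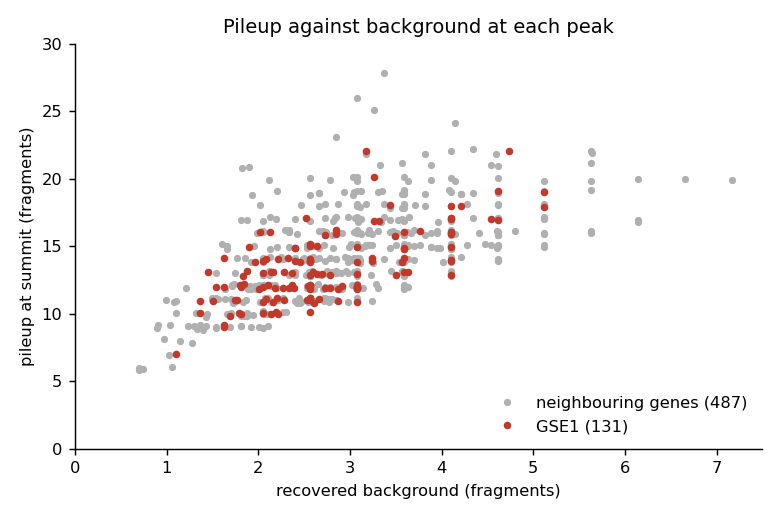
Pileup at the summit against the recovered background, both in fragments, for the GSE1 peaks and for the peaks of neighbouring genes, with a small vertical scatter of under 1 fragment to separate equal values. Both sets rise along the same band, and GSE1 peaks lie between 7 and 22 fragments over backgrounds of 1.10 to 5.12.

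The neighbours were the 61 other protein-coding genes on chr16:85000001-90000000, which held 487 further peaks, 1 of them with its summit outside that stretch in a gene that crosses its edge. GSE1 had 17.2% of the 760 peaks of these 5 Mb in 10.1% of the length. Without GSE1 the stretch had 14.0 peaks per 100 kb. The median neighbour had 26.5 peaks per 100 kb, so GSE1 stood at rank 32 of 62 by density. Of the 20 neighbours of 50 kb or more, 5 were denser. Among all 62 genes GSE1 was thus unusual for its length and near the middle by density. Beside the neighbours of 50 kb or more it was among the denser genes, with intronic peaks at 24.8 per 100 kb against 14.2. The longest neighbour, C16orf95, measures 233.9 kb and had 5 peaks.

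The genes next to GSE1 had few peaks. Upstream, CIBAR2 had 4 peaks (26.5 per 100 kb), KIAA0513 had 7 (10.4) and ZDHHC7, a palmitoyltransferase, had 4 (10.4). Downstream, GINS2 had 1, C16orf74 had 13 (21.0) and EMC8, a subunit of the ER membrane insertase complex, had 4 (13.9). Of these 6 genes only CIBAR2 was as dense as GSE1. Farther on, the half-megabase from 86000001 to 86500000 had 6 peaks, and FOXF1, a forkhead transcription factor gene, was the one neighbour with none.

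**Figure D4:**
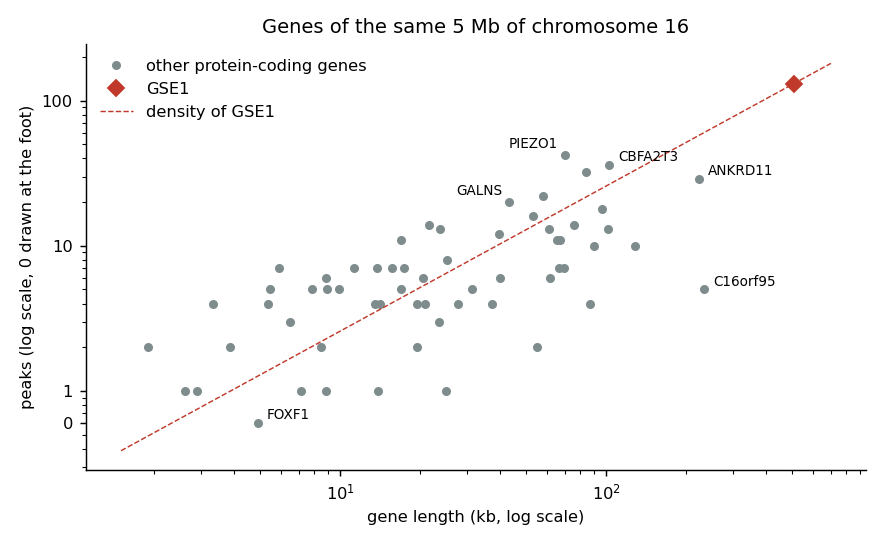
Peaks per gene against gene length in kb, both on log scales, for GSE1 and the 61 other protein-coding genes of the 5 Mb, with a gene of 0 peaks drawn at the foot. The dashed line is the density of GSE1, 25.8 per 100 kb, drawn on gene length alone. With start windows included in the length, 31 neighbours were denser than GSE1, and a short gene can lie above the line without being among them.

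The neighbours with the most peaks all lie farther along the stretch than the 6 nearest genes. PIEZO1, which encodes a mechanosensitive ion channel, had 42 peaks (59.1 per 100 kb), with a median pileup of 15, a background of 3.12 and a gap of 1388 bp. CBFA2T3, an ETO-family corepressor, had 36 (34.8), and ZFPM1, the GATA cofactor FOG1, had 32 (37.8) with a pileup of 16 over 3.59. ANKRD11, a chromatin regulator of 222.9 kb, had 29 peaks at 13.0 per 100 kb, with the same median pileup, 13, and background, 2.56, as GSE1. The others were ZNF469 with 22, the lysosomal sulfatase gene GALNS with 20, the junctophilin gene JPH3 with 18, the actin nucleator gene SPIRE2 with 16, and ACSF3 and CPNE7 with 14 each. CPNE7 had the widest peaks of the 10, with a median of 442 bp.

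Widths in GSE1 and its neighbours were alike in the middle and differed at the top. The medians were 218 bp and 220 bp (206 to 231), but 11.1% of neighbour peaks reached 500 bp against 4.58% in GSE1. Of the 19 neighbours with 10 or more peaks, 6 had a larger median width than GSE1 and 13 a smaller one. The difference of −2 bp was 12 bp with a 5 Mb stretch centred on GSE1 and 16.5 bp against neighbours of 50 kb or more, so its direction depends on the neighbours chosen. The median pileup was 13 in GSE1 and 15 (14 to 15) in the neighbours, and the background was 2.56 and 3.03. Only 27 members exceeded the neighbours' median pileup. The pileup difference of −2 was 0 against the genes of a 5 Mb stretch centred on GSE1, and 0.5 in the other direction when only the canonical body was counted as GSE1. The median folds were 3.82 and 3.89, a difference of −0.0758. The −log10 q was at least 5 in 8.83% of neighbour peaks and in 3.05% of those of GSE1. Among the 19 neighbours with 10 or more peaks, 11 had a higher median pileup than GSE1, 5 an equal and 3 a lower one. Their median gaps ran from 1083 to 6702 bp, with 9 above GSE1 and 10 below.

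By number of peaks, GSE1 ranked first of the 19970 protein-coding genes. Of those genes 9423, or 47.2%, had any peak by the same rule. GSE1 was chosen for its peaks, so its rank by number is not an independent result. By length it ranked 312. Per length it did not stand at the top, since 1454 genes, 7.28%, were denser. Most of those are short. Of the 3661 genes of 100 kb or more, 3 were denser: ZC3H3 at 42.0, CBFA2T3 at 34.8 and SEPTIN9 at 30.3 per 100 kb, and the median was 0.228. Among the 510 genes of 400 kb or more GSE1 was the densest, and the next by count were RPTOR with 35 peaks, RBFOX3 with 31 and CAMTA1 with 28.

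Of the genes of 100 kb or more with the next highest peak numbers, all far below the 131 of GSE1, 4 are described. SEPTIN9, a cytoskeletal GTPase gene, had 67 peaks with a median gap of 2052.5 bp, a width of 198 bp and a pileup of 14 over a background of 2.59. ZC3H3, a zinc finger gene, had 44 with 1163 bp, 181 bp and 15.5 over 3.75. The kinase gene MARK4 had 37, with a wider gap of 3672.5 bp, a width of 198 bp and a lower pileup of 11 over 1.62. CBFA2T3 had 36 with 2111 bp, 201.5 bp and 15 over 3.05. Intronic peaks away from starts made up 95.5% in ZC3H3, 91.9% in MARK4, 86.1% in CBFA2T3 and 65.7% in SEPTIN9. GSE1, at 90.8%, lay within this range. Per length, such peaks numbered 43.2 per 100 kb in ZC3H3, 35.2 in CBFA2T3, 26.0 in SEPTIN9 and 16.3 in MARK4, so 3 of the 4 were above the 24.8 of GSE1.

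The sequence under the peaks was rich in G and C. In 401 bp around the summit the median GC content was 61.1%, with a range of 50.9 to 78.1%, against 56.6% for the whole gene. Of the GSE1 windows without a summit, 25.5% had a GC content of 60% or more, and of the peaks 67.2% did. CpG was nevertheless depleted, with a median observed-to-expected ratio of 0.311. Peak density in GSE1 climbed with GC: none in the 72.3 kb below 50%, then 9.75, 19.8, 56.7 and 57.2 per 100 kb in the ranges 50 to 55, 55 to 60, 60 to 65 and 65% or more. The rest of the 5 Mb had 1.15, 5.87, 17.1, 37.6 and 59.7 in the same order, and chromosomes 1 to 22 and X, called the genome here, 0.142, 2.56, 8.54, 20.6 and 25.6.

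**Figure D5:**
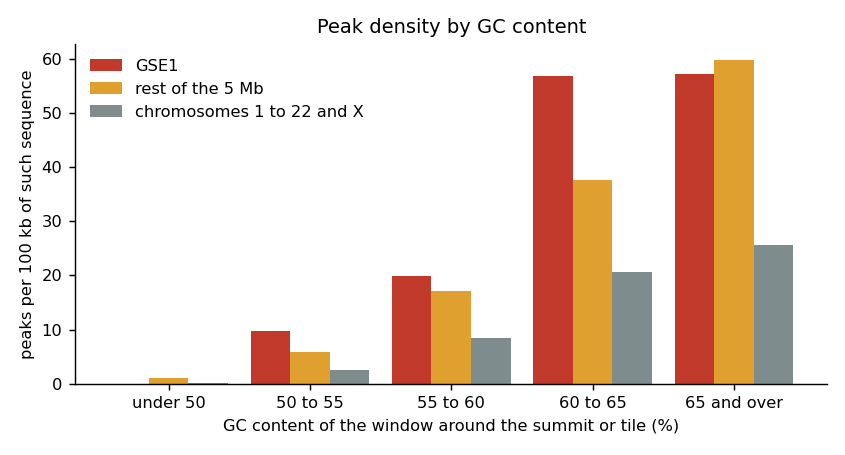
Peaks per 100 kb, as bars, by GC content of the surrounding sequence in percent, for GSE1, the rest of the 5 Mb and chromosomes 1 to 22 and X. All 3 rise from each GC range to the next. GSE1 reaches 56.7 per 100 kb at 60 to 65%, where chromosomes 1 to 22 and X have 20.6. At 65% and over GSE1 is little higher, at 57.2, and the rest of the 5 Mb lies above it, at 59.7.

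The number of peaks was compared with that given by GC content alone. At the genome's rate for each GC range GSE1 would have 52.6 peaks, and the observed number was 2.49 times that. At the rate of chromosome 16 it would have 73.7 (1.78 times), and at that of the rest of the 5 Mb, 103 (1.27 times). Of the 21 genes of 50 kb or more in the stretch, GSE1 ranked 8 by the ratio to the genome rate, behind C16orf74 at 3.99, SPIRE2 at 3.92, SPG7 at 3.27 and PIEZO1 at 3.14, among others, and the lowest was C16orf95 at 0.763. These ratios have no replicate check, and the coverage of the input library by GC was not analysed here.

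Short words were counted in 401 bp around the summits on both strands. The GC box GGGCGG was in 35.1% of GSE1 peaks (27.0 to 43.9%), 38.8% of neighbour peaks, 30.6% of all peaks and 25.0% of GSE1 windows without a summit. The E-box CACGTG was in 13.0% (7.74 to 20.0%), 10.3%, 8.02% and 11.4%. The word CCCTCC was in 61.8% (52.9 to 70.2%), 64.9%, 59.7% and 53.4%. The neighbours' shares lie within the GSE1 intervals for all 3 words. Of the printed windows, peak 2 and peak 1 hold GGGCGG once each on either strand, and peaks 106 and 4 do not. The central 32 bases of all 131 GSE1 peaks occur once in the reference, as do those of 470 of the 487 neighbour peaks.

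Genes of proteins in or beside the corepressor complex of GSE1 were read from a list, of which 12 are reported. Of these 12, 11 had a peak, with 21 peaks over 886.4 kb, fewer in all than the 131 of GSE1. Among all protein-coding genes 47.2% had a peak by the same rule. As the list is not reported whole, nothing is concluded from these shares. RCOR1 had 5 (3.60 per 100 kb) and HMG20B, the HMG-box subunit BRAF35, had 3 (41.0). The demethylase gene KDM1A, the deacetylase genes HDAC1 and HDAC2, and ZNF217 had 2 each. RCOR2, RCOR3, PHF21A, ZMYM2 and GTF2I had 1 each, and ZMYM3 had none.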

How the data were processed

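H4R3me2a ChIP-seq was done in untreated HCT116 cells, with 1 immunoprecipitated and 1 input library. Per the submitters' processing notes, Bowtie2, MACS2, deepTools and GRCh38 were used; for versions, options and filters on reads, the sources used here give nothing. For each of 33353 peaks the authors deposited the pileup (a signal, in fragments, at the summit), the fold over background (a ratio), −log10 p and −log10 q, and an interval list with an integer score. Peaks were called on single libraries. The background was computed as (pileup + 1) / fold − 1, and a Poisson tail with it gave the deposited −log10 p within 0.05 for all 33353 peaks.

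Summits were placed on GENCODE v44 with Python 3.11.15, numpy 2.4.6, pandas 2.3.3, scipy 1.17.1 and matplotlib 3.10.9; rates use the 33349 peaks on chromosomes 1 to 22 and X. Positions are those of the deposited peak table, read as 1-based; its starts are 2 bp above those of the deposited interval list, where 1 bp is usual, so positions carry a doubt of 1 bp. Intervals of shares are exact Clopper-Pearson and those of medians come from binomial ranks, both at 95% and for counting error only. Counting was tested on simulated peaks. Peaks described singly were the 5 highest, 3 widest, 3 nearest the 5′ end and those at the 3 smallest and the largest gaps; neighbours named were the 3 nearest on each side and the 10 with most peaks, with others named after their values were seen. The members and lists were chosen with earlier results of these data known. With 1 library per condition no test between conditions was possible. Alternatives were stricter fold and q limits, other membership and start rules, merged peaks and other neighbour sets. Some genes of the lists are not reported here. The share of repeat-masked sequence was left out because the reference used here carries no masking.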

Additional observations from a re-analysis of the deposited data

How the results depend on the processing

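No paired analysis was possible because each library is single. In the order count, density per 100 kb, median gap in bp, intronic percent and width difference to the neighbours in bp, the values were 131, 25.8, 2437.5, 90.8 and −2. With −log10 q of 5 or more they were 4, 0.788, 44335, 75 and −143.5, and with a fold of 4 or more 53, 10.4, 6115, 96.2 and −33; fewer peaks enter both by construction. Merging peaks under 1 kb apart left 92 peaks, a density of 18.1 and a gap of 4387 bp. With only the canonical body as GSE1, 22 peaks, a density of 34.4 (start windows included in the length) and an intronic share of 68.2% were found, and the pileup difference to the neighbours, −2 in fragments, became 0.5. Taking exons and starts from the canonical transcript alone gave an intronic share of 96.2%, and a 5 Mb stretch centred on GSE1 gave a pileup difference of 0. The width difference was also 9.5 with merged peaks, 12 with the centred stretch and 16.5 against neighbours of 50 kb or more. The cause of the pileup and width changes was not tested. Pileups of 7 to 22 fragments limit the precision of single peaks.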

Other observations

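Genes of other classes lie within GSE1. Of 10 that overlap it, the long lncRNA gene ENSG00000287787 (chr16:85227203-85309176), in intron 1 of GSE1-216, held 24 of the GSE1 peaks. ENSG00000270124 held 2, and ENSG00000287946 and ENSG00000260417 held 1 each. Peaks per length were not computed for these genes, so the counts alone show no concentration of peaks in any of them. LINC00311, MIR5093, COX6CP16, RN7SL381P and the overlapping end of GINS2 held none. In all, 28 members lie in one of these genes, and the peak list carries no strand to assign them to one gene or the other.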
